A study of Homo sapiens with 2 samples.

Results

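The KCN genes encode the pore-forming and auxiliary subunits of potassium channels, and they were chosen here by name, as every row of the count table whose symbol is KCN followed by letters and a closing number. There were 95 such genes among the 60649 rows of the table. The RNA came from RNA immunoprecipitation (RIP), a pull-down of a protein by its antibody together with the RNA it holds, in wild-type MDA-231 cells, a human breast cancer line. Both libraries came from cells given the P4G11 antibody against beta-1 integrin for 16 h in serum-free medium, and 1 was made with an antibody against MT1-MMP and 1 as a mock RIP with rabbit IgG. The treatment protocol also lists E7-s, the title of the first sample reads MMP1 where the design text has MT1-MMP, and the cell line tag of the IgG sample reads MDA-232. Each group is a single library of a single line, so nothing below has a replicate check and no p-value was computed.

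Potassium channels let potassium ions cross membranes down their gradient, which draws the membrane potential toward negative values. The voltage-gated families (KCNA to KCND, KCNH, KCNQ and the silent modifiers KCNF, KCNG, KCNS and KCNV) open on depolarisation, KCNM, KCNN, KCNT and KCNU channels respond to intracellular ions, KCNJ channels pass current inward more readily than outward, and the two-pore KCNK channels carry background leak. The KCNAB, KCNE, KCNIP and KCNMB proteins are partners that form no pore of their own. Several of these channels, among them KCNMA1, KCNN4, KCNH1 and KCNK9, have been studied in breast and other cancers for roles in cell volume, migration and division.

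The MT1-MMP library held 31636000 counts and the IgG library 13003668, of which the ribosomal DNA block on chromosome 21 took 10.2% and 92.6%. Ratios were therefore scaled with TMM factors, so that a raw ratio of 45.9 MT1-MMP counts to 1 IgG count is a scaled ratio of 1, the level of the typical row. "Log2 ratio" below means this scaled ratio of MT1-MMP to IgG with 0.5 counts added to each library. Each bracketed range of a gene or a sum is an exact 95% interval that covers counting error only. The range of a median instead comes from the ranked values of its genes, which are not replicates. A gene was called higher in a library when the whole interval lay beyond 2-fold. By plain CPM every log2 ratio is 4.24 larger. A count of 0 allows up to 3 counts, which is 0.0948 CPM in the MT1-MMP library and 0.231 CPM in the IgG library. All 6 markers of mesenchymal breast cancer cells were detected in both libraries, 38622 MT1-MMP and 1720 IgG counts in sum. CD44 alone held 25209 and 432 of these. VIM, AXL, FOSL1 and S100A4 were higher in the IgG library, and CD44 and MSN in neither. All 6 of luminal epithelium were detected in the MT1-MMP library, 1692 and 249 counts in sum. Of the luminal markers, KRT8 (1051 and 170) and KRT18 (50 and 72) were higher in the IgG library, ESR1 had 369 and 3, GATA3 159 and 3, EPCAM 46 and 1 and CDH1 17 and 0. The 5 neuronal markers summed to 4394 and 18 counts, of which SYT1 held 4257 and 17 and STMN2 1 and 0. The 3 endothelial markers summed to 3488 and 26, of which PECAM1 held 3414 and 24. SYT1 and PECAM1 were higher in the MT1-MMP library. The 5 leukocyte markers summed to 159 and 1 and the 4 muscle markers to 14 and 0. The part of all these markers in the results was not tested.

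The summed counts of the potassium channel genes lay on the MT1-MMP side of the scaled ratio, and in the MT1-MMP library a single gene carried more counts than the rest together. The 95 genes summed to 74002 MT1-MMP counts and 495 IgG counts, where a scaled ratio of 1 would have given 1612 IgG counts (log2 of the summed ratio 1.70, 1.58 to 1.83). KCNQ5 alone made up 55.1% of the family's MT1-MMP counts and 34.5% of its IgG counts. Without it the sums were 33222 and 324, and the log2 ratio of the sums was 1.16 (1.001 to 1.32).

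Detection was uneven. In the MT1-MMP library 86 of the 95 genes had at least 1 count and 11 had at least 1000, and in the IgG library 45 had at least 1 count and the highest was 171. The 9 genes with no count in either library were KCNA1, KCNA4, KCNA5, KCNA10, KCNF1, KCNJ2, KCNJ18, KCNK18 and KCNV2. Another 33 had fewer than 20 counts in both libraries together, 218 MT1-MMP and 5 IgG counts in all, and were not tested. The other 53 genes passed, and in each of them the MT1-MMP counts alone reached 20, so these 53 do not stand for the whole family.

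Of the 53 tested genes, 6 passed the call on the MT1-MMP side: KCNQ5, KCNQ3, KCNS3, KCNMA1, KCNK1 and KCNIP4. None was higher in the IgG library. The 6 are 11.3% of the 53, where 7.24% of the 14315 tested protein-coding genes and 5.9% of all tested rows passed on this side; on the IgG side 16.2% and 12.8% passed. By plain CPM 51 of the 53 would be called toward MT1-MMP, against 86.1% of protein-coding genes, and none toward IgG, against 0.692%. A gene without an IgG count needed 341 MT1-MMP counts to be called, which 22 KCN genes reached. The 6 called genes are 27.3% of these 22, against 13.8% of the protein-coding genes with as many counts, and 7.25% of the latter were higher in the IgG library. Of the 12 that also span more than 100 kb, 4 were called, against 33.7% of such protein-coding genes, so among long genes the share was near the background. Of the 10 shorter ones 2 were called, against 3.95%. With the trend of the ratio on gene span subtracted, KCNK1 alone of the 6 stayed called, and a minimum of 100 counts, which moves the scale, left KCNQ5 and KCNK1.

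The KCNQ family, whose members carry the slow M-type current of neurons and the delayed rectifier of heart and epithelia, had 46099 MT1-MMP and 214 IgG counts, 4 of its 5 members being tested. KCNQ5, an M-current subunit, lies on GRCh38 chromosome 6 from 72622064 to 73198853, a span of 577 kb with introns. Its 40780 MT1-MMP counts against 171 IgG counts gave a log2 ratio of 2.37 (2.16 to 2.60), or 5.18-fold (4.47 to 6.07). Only 22 tested protein-coding genes had more MT1-MMP counts. The largest nested row that could be matched by name, KCNQ5-AS1, held 204 and 2 counts. Some of the 9 RefSeq genes that overlap KCNQ5 had no matched row, so their counts are not known. KCNQ3, the usual partner of other M-current subunits (chromosome 8, 132120861 to 132481095), had 1406 and 5 counts and was also higher, at 2.48 (1.39 to 4.24). Its interval contained that of KCNQ5.

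KCNQ1, the channel of the cardiac slow delayed rectifier (chromosome 11, 2445008 to 2849105), is a different case. It had 3849 and 35 counts and a log2 ratio of 1.24 (0.78 to 1.78), which did not pass the call and did not overlap the interval of KCNQ5. The row of KCNQ1OT1, a noncoding RNA transcribed across KCNQ1 and known for silencing genes of this imprinted region, lies inside its span and held 3766 and 34 counts. The MT1-MMP count of the KCNQ1OT1 row is 97.8% the size of that of the KCNQ1 row. Whether the same reads were counted in both rows is not known, since the counting and its use of strand are not stated.

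The sequences just before the start of 4 members are shown because they differ both in counts and in the number of CG dinucleotides, which are dense in the promoters of broadly expressed genes. Each is 250 bases ending at the base before the RefSeq gene start, 5′ to 3′ on the gene's strand, from RefSeq on GRCh38.p14, with every CG in capitals. KCNQ5 is chr6:72621814-72622063 on the plus strand, KCNK1 chr1:233613856-233614105 plus, KCNJ13 chr2:232776566-232776815 minus and KCNJ2 chr17:70169282-70169531 plus.
KCNQ5: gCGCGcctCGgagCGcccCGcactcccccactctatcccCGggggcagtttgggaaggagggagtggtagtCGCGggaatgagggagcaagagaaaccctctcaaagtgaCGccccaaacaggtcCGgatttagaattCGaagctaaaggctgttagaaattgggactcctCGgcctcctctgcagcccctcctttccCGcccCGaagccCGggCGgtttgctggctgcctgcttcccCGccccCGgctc
KCNK1: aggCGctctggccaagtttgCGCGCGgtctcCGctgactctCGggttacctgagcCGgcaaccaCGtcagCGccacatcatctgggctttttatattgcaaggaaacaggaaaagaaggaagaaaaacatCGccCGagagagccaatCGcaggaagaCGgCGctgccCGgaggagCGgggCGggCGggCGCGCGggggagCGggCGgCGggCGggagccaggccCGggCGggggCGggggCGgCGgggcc
KCNJ13: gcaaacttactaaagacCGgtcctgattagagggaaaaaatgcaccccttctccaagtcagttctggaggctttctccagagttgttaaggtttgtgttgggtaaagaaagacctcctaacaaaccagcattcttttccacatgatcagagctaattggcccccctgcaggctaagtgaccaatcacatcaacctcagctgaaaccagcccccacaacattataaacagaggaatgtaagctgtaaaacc
KCNJ2: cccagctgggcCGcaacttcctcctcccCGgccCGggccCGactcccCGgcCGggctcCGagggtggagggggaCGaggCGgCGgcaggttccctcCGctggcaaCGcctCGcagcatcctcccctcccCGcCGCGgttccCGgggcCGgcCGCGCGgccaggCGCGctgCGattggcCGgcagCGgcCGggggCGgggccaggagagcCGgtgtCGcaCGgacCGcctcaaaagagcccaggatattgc

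KCNQ5 has 18 CG dinucleotides in this window, KCNK1 30, KCNJ13 only 1 and KCNJ2 32, and the MT1-MMP counts were 40780, 978, 450 and 0. The 450 counts of KCNJ13 cannot be assigned to it alone, since it lies within GIGYF2. Over the members with a window the quartiles were 6 and 27 CG, so KCNQ5 lies between them. A window at the gene start was found for 64 of the 95 members. The median was 21 CG over the 32 tested members with a window and 8.50 over the 32 that fell under the minimum. Tested protein-coding genes had a median of 20 and untested ones 6. Over the 64 members the number of CG and the MT1-MMP count had a Spearman's rho of 0.244 (Pearson's r 0.26 on log2 counts), given as a description since genes are no replicates. CG is its own reverse complement, so both strands are counted at once.

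The other voltage-gated families held far fewer counts. KCNS3, a subunit that is silent alone and modifies KCNB channels, lies on chromosome 2 from 17877847 to 17932958 and overlaps no other RefSeq gene. With 1925 and 11 counts it was higher in the MT1-MMP library (1.87, 1.09 to 2.94), the called gene nearest to the 2-fold limit. KCNC1, a fast-activating channel of rapidly firing neurons, had 1367 and 10 counts (1.50, 0.69 to 2.64), and its relative KCNC4 had 502 and 11 (-0.07, -0.86 to 1.003). KCNC1 thus fell short of the call although its point value was 2.84-fold.

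Of the KCNH (EAG and ERG) family, KCNH1, the EAG channel often found in tumours, had 806 and 8 counts and lay at 1.05 (0.15 to 2.35). KCNH8 had 402 and 3 (1.32, -0.01 to 3.83). KCNH2, the hERG channel of heart and of many tumour lines, had only 2 MT1-MMP counts and 0 IgG counts. KCNH7 had 162 and 0 counts but overlaps GCA, whose row held 201 and 5. KCNB2, a slow delayed rectifier, had 246 and 2 counts (1.10, -0.45 to 4.48), and KCND2 and KCND3, the A-type channels, had 111 and 2 (-0.04, -1.61 to 3.34) and 76 and 2 (-0.59, -2.18 to 2.80). Each of these 3 intervals covers 0, so at this IgG depth no side can be read for them. KCNH5, with 119 and 2 counts, lay at 0.06 (-1.51 to 3.44), and KCNH3 had 20 and 1.

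The KCNA (Shaker) family was nearly undetected. Its 8 members held 22 MT1-MMP counts and 0 IgG counts together, 15 of them in KCNA7. KCNA3, the lymphocyte channel, had 4 and 0. Of the silent subunits other than KCNS, KCNG2 had 115 and 0 counts, and KCNG1, KCNG3, KCNG4, KCNV1, KCNV2 and KCNF1 had 0 to 8 MT1-MMP counts. KCNG2, like the silent subunits KCNS1 (71 and 0) and KCNS2 (26 and 0), lies below the MT1-MMP count at which a call was possible without an IgG count. KCNS2 also sits inside STK3, whose row held 10635 and 50.

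Among channels gated by intracellular ions, KCNMA1 was the called gene. It encodes the pore of the large-conductance (BK) channel opened by calcium and voltage, and lies on chromosome 10 from 76869602 to 77637808. Its 2900 and 15 counts gave 2.03 (1.35 to 2.91), and its nested antisense rows held at most 117 MT1-MMP counts. KCNU1, its sperm relative, had 18 and 0. KCNT2, a sodium-activated channel, had 556 and 3 counts (1.79, 0.46 to 4.30), and KCNT1 had 80 and 1 (0.23, -1.72 to 6.12).

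The small and intermediate conductance KCNN channels had summed counts of 3437 and 49, the lowest log2 ratio of sums among the subfamilies with over 1000 MT1-MMP counts (0.61, 0.21 to 1.05). KCNN1 had 256 and 2 counts (1.16, -0.39 to 4.53), KCNN3 1581 and 15 (1.15, 0.47 to 2.04) and KCNN2 1141 and 16 (0.59, -0.07 to 1.45). KCNN4, the intermediate-conductance channel of blood cells and epithelia, had 459 and 16 counts and lay on the other side of 1, at -0.72 (-1.39 to 0.14). Its interval did not overlap that of KCNN3. KCNN4 is also the short gene of the family, spanning 14.4 kb against 173 kb for KCNN3 and 441 kb for KCNN2, and per kb of span it held 31.8 MT1-MMP counts against 9.15 and 2.59.

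None of the 9 tested inward rectifiers was called, beside 7.24% of tested protein-coding genes. Only KCNJ8 and KCNJ13 reached the 341 MT1-MMP counts needed for a call without an IgG count. The 16 KCNJ genes summed to 1965 and 25 counts (0.78, 0.21 to 1.41). KCNJ8, the pore of the vascular ATP-sensitive channel, had the most, 682 and 3 counts over only 9.75 kb (2.09, 0.75 to 4.59). For the 1 RefSeq gene that overlaps KCNJ8 no row could be matched by name, so its counts are not known. KCNJ13, of retinal and choroid plexus epithelium, had 450 and 1 counts (2.71, 0.81 to 8.60) but lies within GIGYF2, whose row held 4563 and 53, so the reads cannot be assigned to it alone. KCNJ14 had 214 and 8 counts (-0.86, -1.78 to 0.45) and overlaps GRWD1. KCNJ6 had 217 and 4 (0.07, -1.14 to 2.13), KCNJ10 106 and 4 (-0.96, -2.19 to 1.11) and KCNJ5 79 and 4 (-1.38, -2.63 to 0.69). KCNJ15, with 72 MT1-MMP counts, and KCNJ11, the pore of the pancreatic ATP-sensitive channel, with 61, had no IgG count. KCNJ3, a G protein-gated subunit studied in breast tumours, had 51 and 0. KCNJ12, with 5 counts, and KCNJ18, with 0, are near-identical copies among which reads may be split or lost.

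In the two-pore family KCNK1 had the highest log2 ratio of the 6 called KCN genes, on only 2 IgG counts. This weak leak channel (chromosome 1, 233614106 to 233672514) had 978 MT1-MMP counts and 2 IgG counts, where a ratio of 1 would have given 21.3, and lay at 3.09 (1.56 to 6.46). A small nested microRNA row was the only overlap. KCNK12 had a similar number of MT1-MMP counts, 1029, but 10 IgG counts (1.09, 0.28 to 2.23), and its span overlaps another gene, so its reads cannot be assigned to it alone. The intervals of the 2 genes overlap. KCNK6 had 129 and 6 counts (-1.20, -2.26 to 0.38), beside YIF1B with 234 and 27, and KCNK9, an acid-sensitive channel amplified in some breast tumours, had 29 and 0. KCNK2, a mechanosensitive leak channel, had 87 and 0, and KCNK13 36 and 1.

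The 16 auxiliary subunits summed to 10435 and 111 counts (1.03, 0.76 to 1.32), and 1 of 11 tested was called, beside 7.24% of tested protein-coding genes. KCNIP4, a calcium-binding partner of KCND channels, is the longest member at 1220 kb (chromosome 4, 20728606 to 21948772). It was higher in the MT1-MMP library with 4898 and 30 counts (1.81, 1.31 to 2.40), although the overlapping PACRGL row held 1663 and 18. The other KCNIP genes did not pass: KCNIP3, which also acts as a transcriptional repressor, had 584 and 18 counts and lay at -0.54 (-1.17 to 0.26), with an interval wholly below that of KCNIP4. KCNIP2 had 272 and 6 (-0.13, -1.16 to 1.44) beside its antisense row of 218 and 3, and KCNIP1 had 20 and 0.

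KCNAB1, the beta subunit of Shaker channels, had 3252 and 36 counts (0.96, 0.50 to 1.49), and KCNAB2 367 and 10 (-0.39, -1.22 to 0.75). Of the BK channel beta subunits, KCNMB4 had 238 and 1 counts (1.79, -0.12 to 7.68) and KCNMB3 432 and 10 (-0.16, -0.98 to 0.98), the latter overlapping PIK3CA with 3057 and 28. KCNMB2 had 229 and 0 counts, at least 1.66-fold higher in the MT1-MMP library against a floor of 3 IgG counts and 1.34-fold at the lower end of the exact interval, which also covers the error in the 229. The row of KCNMB2-AS1, which covers it, held 346 and 1. The KCNE subunits had no IgG count among them, with KCNE4 at 72 MT1-MMP counts and KCNE1 at 43. KCNE1 has a near-identical copy, KCNE1B, whose row held 4 counts.

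**Figure D1:**
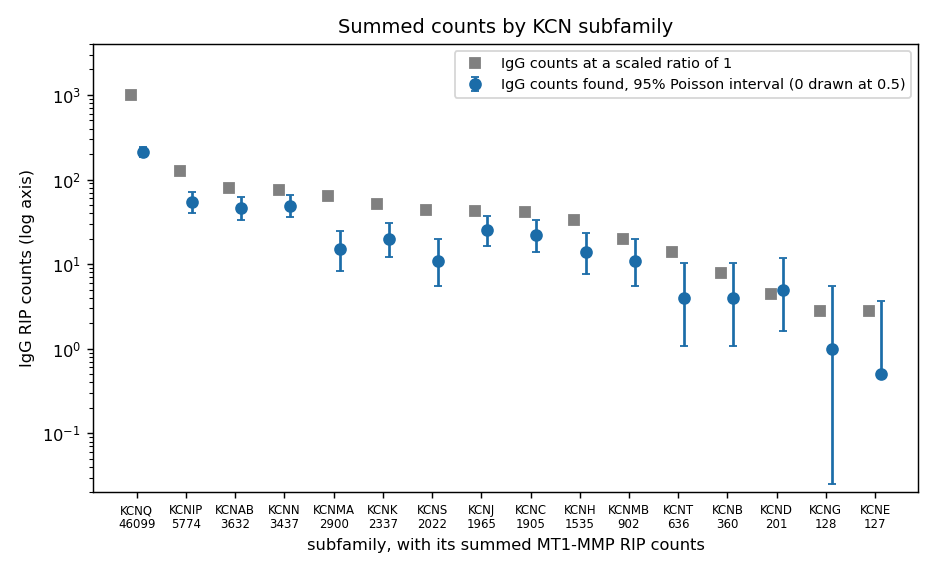
Summed IgG counts of each KCN subfamily with at least 100 MT1-MMP counts, found (circles, with exact 95% Poisson intervals) and at a scaled ratio of 1 (squares), on a log axis, with 0 drawn at 0.5. Circles lie below squares in every subfamily drawn except KCND (5 found, 4.38 at a ratio of 1), and the intervals of KCNMB, KCNB, KCND, KCNG and KCNE reach the square.

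By class, the summed log2 ratio was 2.07 (1.90 to 2.25) for the voltage-gated pores, 1.16 (0.82 to 1.53) for the ion-activated pores, 1.35 (0.72 to 2.06) for the two-pore channels, 0.78 (0.21 to 1.41) for the inward rectifiers and 1.03 (0.76 to 1.32) for the auxiliary subunits. Without KCNQ5 the voltage-gated sums were 11494 and 100 (1.32, 1.04 to 1.62). The median log2 ratio over tested members was 1.08, 1.15, 0.73, 1.17 and 0.92 in the same order, and 1.05 (0.06 to 1.42) over all 53, against 0.05 over tested protein-coding genes and 0.17 over all tested rows. This median is not firm: 13 of the 53 genes (24.5%, against 9.13% of tested protein-coding genes) had 0 IgG counts, and their values depend on the 0.5 counts added. With these genes set at the floor of 3 IgG counts the KCN median was -0.04 and the protein-coding median -0.28. The class medians at this floor were 0.03, 1.15, -0.79, -0.94 and -0.16 in the same class order. With 0.5 counts added, the range of every class median covered 0. The summed ratios do not depend on added counts. Over the 31 tested genes with fewer than 341 MT1-MMP counts the sums were 3438 and 51 (0.55, 0.16 to 0.98). These 31 all reached the minimum on MT1-MMP counts alone, so they are selected on that library and their ratio does not stand for the low genes. The genes below the minimum summed to 218 and 5 (-0.07, -1.32 to 1.56).

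Gene length was examined because ratios over all protein-coding genes rise with span (Spearman's rho 0.617 across 14315 genes, Pearson's r 0.62 on log2 span). Across the 53 KCN genes rho was 0.253 and r 0.26; points within each library share its depth, and genes are not replicates. The 26 tested KCN genes over 100 kb had a median of 1.13, beside 1.19 for protein-coding genes of that size. With 0 IgG counts at the floor these medians were 0.41 and 1.07, and 7 of the 26 KCN genes had no IgG count. The 27 shorter ones had a median of 0.23 beside -0.36, or -0.72 beside -0.70 with 0 IgG counts at the floor. With the trend of protein-coding genes on span subtracted, the KCN median was 0.18, and 30 of 53 genes lay above the trend. The differences from the trend were 4.57 for KCNE4, 4.20 for KCNJ11, 4.11 for KCNJ13, 3.69 for KCNJ8, 2.75 for KCNK1 and 0.75 for KCNQ5; KCNE4 and KCNJ11 had no IgG count. The lowest was that of KCND3, -1.84, and KCND2 was at -1.66. In levels per length, KCNQ5 had 70.7 MT1-MMP counts per kb of span and KCNJ8 69.9, followed by KCNJ13 (41.8), KCNS3 (34.9), KCNN4 and KCNC1 (28.3). Most KCN genes were sparse: the median of the 53 was 3.38 per kb, against 13.7 for tested protein-coding genes.

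Overlap with other genes affected 12 of the 53 genes, for which another row within the span held at least 50% as many MT1-MMP counts. These 12 summed to 6891 and 81 counts (0.89, 0.57 to 1.22) and none was called, beside 7.24% of tested protein-coding genes. The 41 others summed to 66893 and 409 (1.83, 1.69 to 1.98), of which KCNQ5 alone held 40780 and 171. This sum is therefore weighted to 1 gene, and all KCN genes without KCNQ5 lay at 1.16 (1.001 to 1.32).

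Other genes of ion transport were counted by list. Of 9 tested potassium channel partners outside the KCN names, 2 were higher in the MT1-MMP library: ABCC9, the sulfonylurea receptor that assembles with KCNJ8 (5515 and 26 counts, 2.18, 1.66 to 2.82), and NEDD4L, a ubiquitin ligase that removes channels from the membrane (24727 and 218, 1.30, 1.11 to 1.50). CALM2 and CALM3 encode calmodulin, the calcium sensor of KCNN and KCNQ channels, and were higher in the IgG library, CALM2 with 2386 and 167 counts (-1.69, -1.91 to -1.45) and CALM3 with 216 and 58 (-3.63, -4.05 to -3.18). By plain CPM CALM2 was on the MT1-MMP side, at 75.4 against 12.8 CPM. Of 11 tested genes of the sodium pump, which builds the potassium gradient, and of cation chloride cotransporters, none was called toward MT1-MMP and 2 toward IgG. The potassium chloride cotransporter SLC12A7 was higher in the IgG library (89 and 10 counts, -2.43, -3.31 to -1.26).

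The other channel families had 1 of 18 tested voltage-gated calcium channel genes (CACNA2D1, 1780 and 9 counts), 2 of 15 TRP genes (TRPC1 and TRPM3), 2 of 16 chloride channel genes (ANO6 and ANO10), 0 of 10 sodium channel genes and 0 of 4 HCN genes called toward MT1-MMP, beside 7.24% of all tested protein-coding genes. With so few genes a family, these counts set none of the families apart. CLCN7 and ANO8 were higher in the IgG library. The log2 ratios of summed counts were 1.41 (1.09 to 1.76) for calcium channels, 1.39 (1.19 to 1.60) for TRP channels, 0.92 (0.73 to 1.11) for chloride channels, -0.00 (-0.46 to 0.49) for sodium channels and 0.29 (-0.60 to 1.36) for HCN channels. The value of the KCN genes without KCNQ5, 1.16 (1.001 to 1.32), lay among those of the calcium, TRP and chloride channels, with overlapping intervals.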

How the data were processed

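The submitters' processing notes name cutadapt, HISAT2, SAMtools and build hg38. Versions, counting tool, annotation and strand setting were not given in the sources used here. Deposited by the authors were whole-number read counts per gene row, in 1 column per library that the labels name. A row with the same name and counts as another was kept once (959 dropped). Names, spans and overlaps came from RefSeq GRCh38.p14, which held all 95 KCN genes, and positions are gene spans with introns. Over the 25933 rows with at least 20 summed counts, TMM factors (edgeR 4.0.16) scaled the ratio. Clopper-Pearson intervals (scipy 1.17.1) are conditional on the summed count, and cover counting error only, since PCR copies cannot be recognised here. With 1 library per group no count test could be run. A median's interval is the order-statistic interval over members. The members, lists and tests were chosen with earlier results of these data known. Named were all called genes, the leading genes of each subfamily, the 12 with most counts, those nearest a ratio of 1 or the call limit, and 9 cancer-studied channels; others were added after their values were seen, and some genes are not reported here. Alternatives changed the scaling, the minimum count, the added count, the call, overlapping members and the span trend.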

Additional observations from a re-analysis of the deposited data

How the results depend on the processing

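No paired analysis was possible because each group is 1 library, and no replicate could be left out. The same 6 KCN genes passed the call on the MT1-MMP side with DESeq2 size factors, upper quartile factors and TMM over protein-coding rows. Of tested protein-coding genes 6.57%, 9.08% and 7.96% passed there. The added counts do not enter the interval, so 2 or 5 added counts could not change a call. By total counts 51 of the 53 passed, against 86.1% of tested protein-coding genes. By totals outside the ribosomal DNA block, a scale added after seeing the data, 14 passed, against 17.8%. A minimum of 1 count left 86 KCN genes, of which 10 passed, against 10.3%. A minimum of 100 counts left 36, of which 2 passed (KCNQ5 and KCNK1), against 3.75%. With the interval beyond 1-fold 16 of the 53 passed, against 25.2%, and beyond 4-fold 1 (KCNQ5), against 0.238%. Of the 13 members without any overlapping gene 2 passed, beside 7.24% of all tested protein-coding genes, for which overlap was not examined. With the span trend removed 5 passed, KCNK1, KCNJ8, KCNJ13, KCNJ11 and KCNE4, against 3.59% of tested protein-coding genes. Only KCNK1 of these was among the main 6. KCNQ5 was called under every setting that kept it except the removed span trend. Leaving out KCNQ5, also added after seeing the data, could not change the other 5, since the scale was kept and each gene is called separately. No setting gave a KCN gene higher in the IgG library. The TMM scale moved with the minimum: it was 35.7 raw counts to 1 with a minimum of 1 and 61.4 with a minimum of 100.

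The median log2 ratio of the tested members, 1.05, turned to -0.10 with a minimum of 1 count, -0.31 with 2 added counts and -0.89 with 5; the protein-coding medians there were -0.10, -0.45 and -0.91. It was 5.29 by total counts, 1.69 outside the block and 1.50 without overlapping members. By total counts the class medians were 5.31 (voltage-gated), 5.39 (ion-activated), 5.40 (inward rectifier), 4.97 (two-pore) and 5.16 (auxiliary). With 5 added counts they were -0.74 (voltage-gated), -1.58 (inward rectifier), -1.62 (two-pore) and -0.84 (auxiliary). The voltage-gated median was also -0.21 with a minimum of 1 count, 1.75 without overlapping members, -0.38 with the span trend removed and 1.71 outside the block, and the ion-activated value without overlapping members was -0.72, KCNN4 alone. Added counts draw low genes toward the IgG side; other causes were not tested.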
